A study of Mus musculus with 19 samples.

Results

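The 7 genes Oas1a, Oas1b, Oas1g, Oas2, Oas3, Oasl1 and Oasl2 of the oligoadenylate synthetase (OAS) family were followed through 19 total RNA-seq libraries of mouse mammary tissue, in which 24421 genes had an entry. They were chosen by symbol from a family whose reads had been seen to fall in the delCsn1s2b-E libraries at day 18 of pregnancy, where Oas1a had none, so their values in delCsn1s2b-E, delCsn3-PE and wild-type (WT) tissue at day 18 are given here as a description without a test. All 7 had reads and passed the filter of 10 reads in total in every model. All mice were of the C57BL/6 background. WT tissue gave 3 libraries at day 6 of pregnancy (p6) and 3 at day 18 (p18), and tissue with the genotype Enhancer-delS1-4, the deletion of the casein super-enhancer written here as ΔSE, gave 4 at each stage. The genotype delCsn3-PE lacks the proximal enhancer of the kappa-casein gene Csn3 and gave 2 libraries at p18. The genotype delCsn1s2b-E lacks an enhancer of Csn1s2b, one of the alpha-S2 casein genes, and gave 3 libraries at p18. For these 5 libraries the stage label says p18, while their extraction notes speak of wild-type tissue in lactation, and the study's text does not describe them. The label does not say which Csn1s2b enhancer was removed or how many founder mice either line goes back to.

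OAS enzymes are sensors of double-stranded RNA, the hallmark of many viral infections. When bound to such RNA they join ATP into short 2′-5′ linked oligoadenylates (2-5A), which act as second messengers of the antiviral response. Transcription of the family is controlled by interferon through transcription factors that include STAT2 and IRF9 and that bind interferon-stimulated response elements, and healthy tissues keep a low basal level. Oas1a, Oas1g, Oas2 and Oas3 encode enzymes of this kind. Oas1b is the flavivirus resistance gene, which carries a premature stop codon in most laboratory strains including C57BL/6. Oasl1 and Oasl2 encode OAS-like proteins with ubiquitin-like domains, of which OASL1 lacks the synthetase activity and represses translation of IRF7, whereas OASL2 retains the activity.

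All members lie on chromosome 5, as do the casein genes (GRCm38, GENCODE M21 annotation). Oas2, Oas3, Oas1b, Oas1g and Oas1a are part of a cluster of 10 genes at chr5:120730333-120921652, 32.8 Mb from Csn3, and Oasl1 and Oasl2 are neighbours at chr5:114896936-114937915, 27.0 Mb from Csn3. The annotation classes Oas1b as a polymorphic pseudogene and the other 6 as protein coding. Of the 7 members, 5 had a promoter entry in the RefSeq table (GRCm38.p6), and in 3 of these, Oas1a, Oas1g and Oas3, the 250 bases before the start held the letters GAAA and GAAA again with any 2 bases between them, the core of the interferon-stimulated response element, on either strand. Oas1a and Oas1g each held 2 overlapping matches. The same letters were found before 821 of 27025 genes (3.04%) and before 18 of 47 interferon-stimulated genes outside the family (38.3%). Oas1b and Oas2 had no entry and were not searched on their own. The last 100 bases before the start are shown for Oas1a, Oas1g and Oas3, on the strand of the gene (minus), with the matches in capitals. A match describes the letters only and is not a measured binding site.
Oas1a (chr5:120907526-120907625): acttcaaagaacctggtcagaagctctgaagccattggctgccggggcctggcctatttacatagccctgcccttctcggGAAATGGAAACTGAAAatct
Oas1g (chr5:120887614-120887713): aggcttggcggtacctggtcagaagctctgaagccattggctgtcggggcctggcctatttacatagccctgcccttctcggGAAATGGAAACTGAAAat
Oas3 (chr5:120777660-120777759): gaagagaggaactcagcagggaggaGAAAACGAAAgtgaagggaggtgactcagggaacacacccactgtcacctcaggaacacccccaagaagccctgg

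The promoters of Oas1a and Oas1g were 90.2% identical over the aligned stretch, and their transcripts were also alike. Of the 50-base stretches in Oas1a transcripts, 57.6% occurred in Oas1g as well and 42.4% in no other gene, against 54.3% unique to Oas1g and 97.0 to 100% unique to each of the other 5 members. The division of reads between Oas1a and Oas1g is therefore uncertain, since the reads were 50 bases long at each end. Where the pair had reads, Oas1a took a median of 70.4 to 80.0% of them in the 5 groups.

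The depth differed between the sets of libraries. WT and ΔSE libraries held 12335272 to 20525175 reads in genes, of which the ribosomal RNA precursor Rn45s took 21.7 to 42.9%, and the single-enhancer libraries held 26848053 to 30329601, with 0.0765 to 0.924% on Rn45s. The single-enhancer lines had no WT libraries of their own, so that a difference from WT cannot be told apart from the difference between the sets, while delCsn1s2b-E and delCsn3-PE lie within one set. The targeted genes were checked in each line. Csn3 had 1358 and 276 normalized CPM (reads scaled to library size) in delCsn3-PE against at least 13258 in delCsn1s2b-E, and Csn1s2b had 27.8 to 51.5 in delCsn1s2b-E against 230 and 122 in delCsn3-PE. The Csn1s2b range overlapped that of WT at p18, 42.7 to 217. Tissue markers of luminal epithelium and milk proteins were present in every group, with no marker gene at 0 in all libraries of a group.

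In WT and ΔSE tissue the family was read at low but measurable levels. Per kilobase of exon, the highest mean level in WT at p6 belonged to Oas2, 3.56 normalized CPM per kb, followed by Oasl2 at 2.75, Oas1b at 2.15 and Oas1a at 1.72. Oas1g at 0.675 and Oas3 at 0.233 were the lowest. At p18 in WT tissue Oasl2 stood first at 2.49 per kb, Oas1a followed at 2.22 and Oas2 at 1.65, and Oas3 was again the lowest at 0.258. In whole tissue, fewer cells of a type and less RNA per cell cannot be told apart.

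The feature by which the members were chosen was their low number of reads in delCsn1s2b-E tissue. Oas1a, the more highly read of the duplicates Oas1a and Oas1g, had 0, 0 and 0 reads in the 3 delCsn1s2b-E libraries, 82 and 121 in delCsn3-PE, and 65, 72 and 64 in WT at p18. The same gene had 22 to 43 reads in the 4 ΔSE libraries at p18 and 38 to 102 in the 7 libraries at p6. The other 16 libraries thus all held Oas1a reads, although 14 of them were shallower than the delCsn1s2b-E libraries. Oas1g followed the pattern of Oas1a, with 0, 0 and 0 reads in delCsn1s2b-E, 20 and 40 in delCsn3-PE, and 26, 27 and 29 in WT. Because both duplicates were at 0, their absence did not depend on how shared reads had been divided between them.

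**Figure D1:**
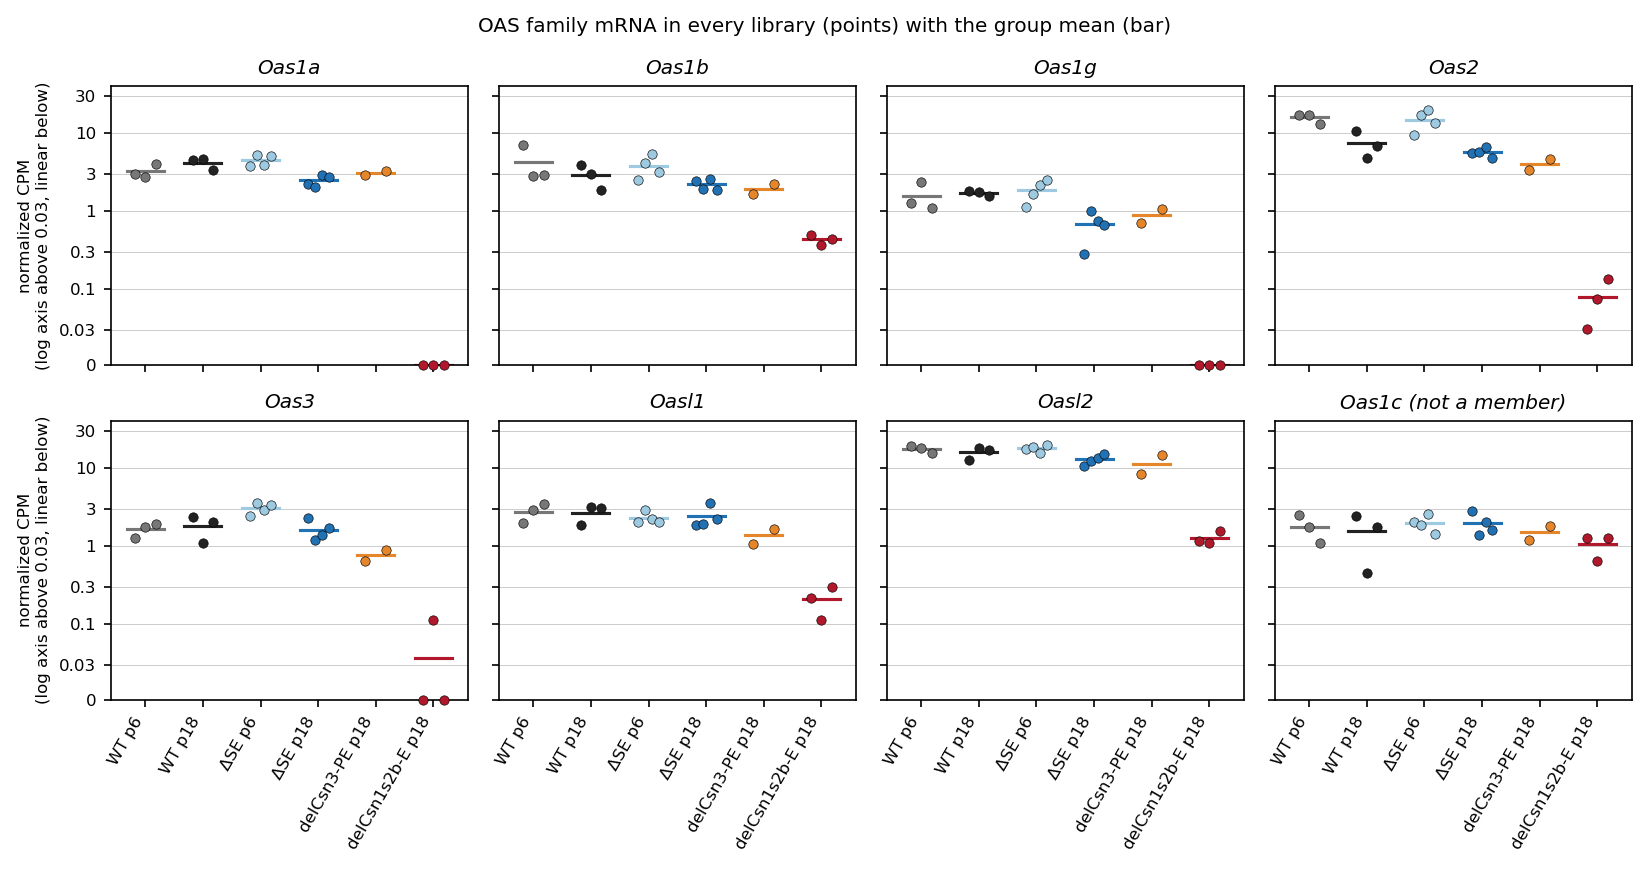
Normalized CPM (vertical axis, logarithmic above 0.03 and linear below) of the 7 OAS members and of Oas1c in each of the 19 libraries (points), with the mean of each group (bars). All 7 members lie lowest in the 3 delCsn1s2b-E libraries, where Oas1a and Oas1g are at 0, while Oas1c in that line ranges from 0.632 to 1.27 and overlaps delCsn3-PE and both WT groups but neither ΔSE group.

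The larger synthetases were not far above 0 either. Oas2, which makes 2-5A from double-stranded RNA as Oas1a does, had 1, 2 and 4 reads in delCsn1s2b-E, 96 and 175 in delCsn3-PE, and 152, 73 and 129 in WT at p18. Oas3, the largest enzyme of the family, which prefers long double-stranded RNA, had 0, 3 and 0 reads in delCsn1s2b-E, 18 and 33 in delCsn3-PE, and 34, 17 and 38 in WT. In both genes each delCsn1s2b-E library was below each library of the other 5 groups.

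The OAS-like genes and Oas1b were less far below the other groups. Oasl2, which has the most reads of the OAS-like genes, had 37, 29 and 47 in delCsn1s2b-E, 235 and 537 in delCsn3-PE, and 181, 279 and 320 in WT. Oasl1, the regulator of IRF7 translation, had 7, 3 and 9 reads in delCsn1s2b-E, 30 and 62 in delCsn3-PE, and 27, 48 and 57 in WT. Oas1b had 16, 10 and 13 reads in delCsn1s2b-E, 47 and 83 in delCsn3-PE, and 56, 46 and 35 in WT. None of these 3 genes overlapped between delCsn1s2b-E and any other group after normalization.

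Within the set of single-enhancer lines, all 7 members were lower in delCsn1s2b-E than in delCsn3-PE without overlap between libraries. Among all 17125 genes fitted, 9.51% were lower without overlap in this comparison, a share that is given for scale only because the members were chosen from it. From summed reads, and with exact 95% intervals that cover counting error only, Oas2 was 52.5-fold lower (25.2 to 132), Oas3 23.1-fold (7.46 to 116, from 3 reads) and Oasl2 9.27-fold (7.60 to 11.4). Oasl1 was 6.57-fold lower (3.98 to 11.4) and Oas1b 4.52-fold (3.14 to 6.65). For the genes with no reads the bound is set by 3 reads over the group, 0.0337 normalized CPM. Oas1a was at least 91.8-fold lower and Oas1g at least 27.1-fold lower. The median log2 fold change of the 7 members was -4.31, against 0.00 for all genes.

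Against WT tissue at p18, no member overlapped with delCsn1s2b-E and all 7 were lower there, while 46.9% of all genes did not overlap, in either direction. This comparison uses the same delCsn1s2b-E libraries and crosses the 2 sets. Oas1a was at least 123-fold below WT, and the bound for Oas1g, also without reads, is drawn in the plot of folds. Oas2 was 92.5-fold lower (44.4 to 232) and Oas3 54.3-fold (18.0 to 268). Oasl1 was 12.7-fold lower (7.82 to 21.8), Oasl2 12.6-fold (10.4 to 15.5) and Oas1b 6.43-fold (4.47 to 9.42). The median log2 fold change was -5.62, against 0.00 for all genes.

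In delCsn3-PE the members were much closer to WT. Of the 7, 5 were lower than WT at p18 without overlap (Oas1a, Oas1g, Oas2, Oas3 and Oasl1), where 21.9% of all genes were. The count was 1 of 7 when libraries were scaled by their total reads without TMM factors, and 7 of 7 without delCsn3-PE replicate 2. The folds ran from 1.33-fold lower for Oas1a (1.09 to 1.63) to 2.35-fold for Oas3 (1.65 to 3.39), and the median log2 fold change was -0.92. Oas1a stood at 2.88 and 3.25 normalized CPM in delCsn3-PE and at 4.48, 4.67 and 3.40 in WT. Oasl2, at 8.27 and 14.4 in delCsn3-PE, overlapped WT at 12.5 to 18.1.

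Ordered by mean level over all 6 groups, each member was lowest in delCsn1s2b-E, and the step to the next group was without overlap for all 7. For Oas1a the order above that step was ΔSE at p6, WT at p18, WT at p6, delCsn3-PE and ΔSE at p18, and each of these groups overlapped the next. For Oas2 it was WT at p6, ΔSE at p6, WT at p18, ΔSE at p18 and delCsn3-PE, and only delCsn3-PE was separated from the group above it. Above the lowest group, Oas1b and Oasl2 showed overlap between all neighbours as well, while delCsn3-PE was separated from the group above it in Oas1g, Oas3 and Oasl1. Oas3 was also separated between ΔSE at p6, its highest group, and WT at p18.

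**Figure D2:**
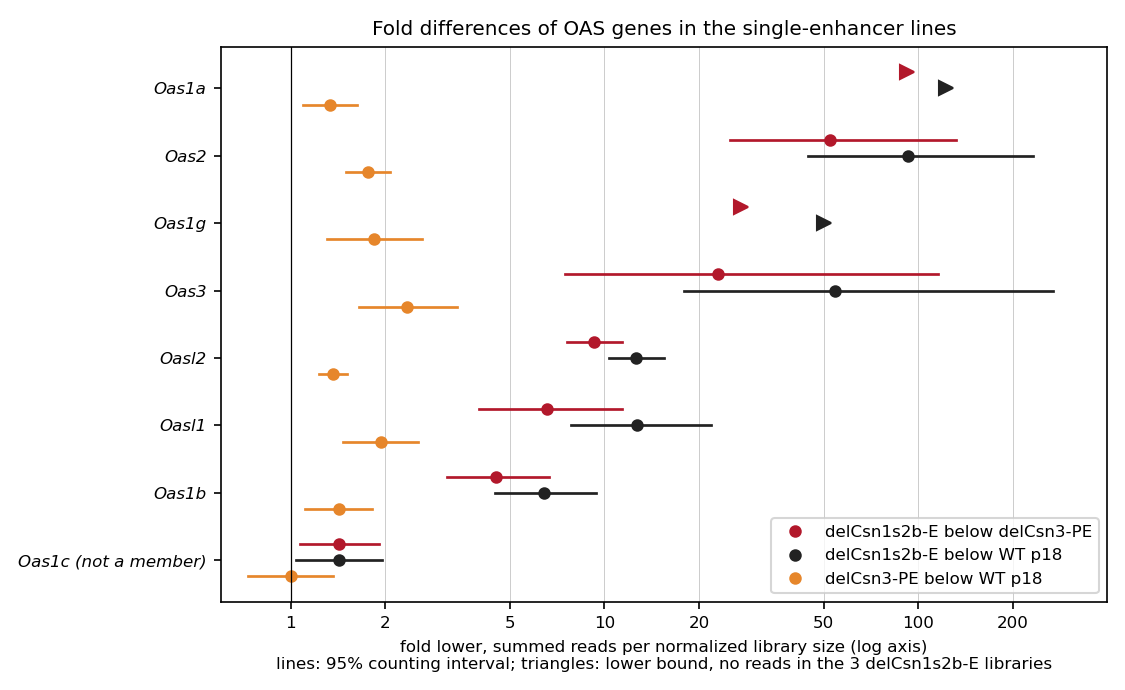
Fold by which summed reads per normalized library size were lower (horizontal logarithmic axis) for each OAS gene in 3 comparisons, with exact 95% counting intervals (lines) and lower bounds for genes with no reads (triangles). The members in delCsn1s2b-E lie between 4.52-fold and at least 123-fold lower, those in delCsn3-PE between 1.33-fold and 2.35-fold below WT, and Oas1c at 1.43-fold or less.

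Of the other OAS genes, only Oas1c had enough reads to compare, and in delCsn1s2b-E it was closer to the other groups than the members were. Oas1c, a further member of the Oas1 group that lies between Oas3 and Oas1b, had 41, 17 and 38 reads in delCsn1s2b-E, 34 and 67 in delCsn3-PE, and 35, 7 and 33 in WT at p18. It was 1.43-fold lower than in delCsn3-PE (1.07 to 1.91) with overlap between libraries. The promoter of Oas1c held 2 matches of the same letters, the first at -114 to -105 from the start, on the strand opposite to the gene. Oas1c on the minus strand and the member Oas1b on the plus strand start head to head, at chr5:120812514 and chr5:120812635. The first match lies between these starts, so it is also before the start of Oas1b and on the strand of Oas1b. The match can therefore not be assigned to Oas1c alone. In Oas1a the first match was at -20 to -11, on the strand of the gene. The part of these letters in the OAS values was not tested. Oas1h had 0 to 7 reads in any library, and Oas1d, Oas1e and Oas1f 0 to 2, too few to compare.

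Oas1a and Oas1g were among very few genes with this pattern. Only 3 genes had no reads in the 3 delCsn1s2b-E libraries and at least 1 in each of the other 9 libraries at p18, and the third was the predicted gene Gm14325, with 1 to 447 reads. The corresponding count was 2 genes for WT, 10 for ΔSE and 0 for delCsn3-PE, none of them an OAS gene. The groups differ in number and depth of libraries, so these counts are descriptive.

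Genes that act downstream of OAS were not lower. Abce1, an ATP-binding cassette protein of the 2-5A pathway, differed by a log2 fold change of 0.14 (SE, the standard error, 0.21) in delCsn1s2b-E against delCsn3-PE, and Pde12, a phosphodiesterase that degrades 2-5A, by 0.29 (SE 0.18). Both overlapped between the lines.

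Upstream, genes of interferon signalling divided by step. The receptor chain Ifnar1 had a log2 fold change of 0.06 (SE 0.15), Ifnar2 -0.15 (SE 0.13), and the kinases Jak1 and Tyk2 0.10 (SE 0.14) and -0.19 (SE 0.14). Of these 4, only Ifnar2 did not overlap. Larger differences were seen in genes that are themselves interferon-stimulated. Usp18, a negative regulator of the receptor, was at 0.703 to 0.712 normalized CPM in delCsn1s2b-E and 4.12 to 6.04 in delCsn3-PE, a log2 fold change of -2.85 (SE 0.27). Irf7, a transcription factor of the type I interferon response, had -2.04 (SE 0.21) and Stat2 -1.39 (SE 0.20), whereas Irf9 had -0.54 (SE 0.12). In all, 8 of 16 signalling genes were lower without overlap, against 9.51% of all genes, and none was higher. Of 18 interferon genes, 10 had no reads in any of the 19 libraries, and none had more than 40 in a library, and only 4 had the 10 reads in total needed to be fitted. Of these 4, Ifng and Ifnk were higher in delCsn1s2b-E than in delCsn3-PE without overlap. Ifng, the type II interferon, had 19 reads in all in delCsn1s2b-E and 7 in delCsn3-PE, at 0.134 to 0.297 against 0.106 to 0.107 normalized CPM. The delCsn3-PE values are near the floor of 3 reads, 0.0805 to 0.106 per library, and WT at p18 had 0 to 0.207. Ifnk, a type I interferon, had 30 and 12 reads, at 0.268 to 0.371 against 0.176 to 0.188. For Ifnk both lines were below WT at p18, 0.649 to 1.65, without overlap but across the sets. Ifne and Ifna13 overlapped.

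Other interferon-stimulated genes were lower as well. Of 59 such genes outside the family, 58 were fitted, and 43 were lower in delCsn1s2b-E than in delCsn3-PE without overlap and 0 higher. Among all genes 9.51% were lower without overlap, a share that also applies to the lists that follow in this comparison. Their median log2 fold change was -0.76, and 23 were below -1, a size reached by 2.29% of all genes. Rtp4 had the largest difference, with 0.535 to 0.990 normalized CPM against 10.9 to 18.5 and a log2 fold change of -4.21 (SE 0.28). Mx2 and Mx1, antiviral GTPases, followed with -3.80 (SE 0.53) and -3.51 (SE 0.53), and Ifi44 with -3.43 (SE 0.34). Of 11 RNA sensors and adaptors 6 were lower without overlap, from Dhx58 (LGP2) at -2.04 through Zbp1 at -0.69, Adar at -0.57, Tlr7 at -0.52 and Ifih1 (MDA5) at -0.36 to Myd88 at -0.32. Dhx58, Zbp1, Ifih1, Ddx58 and Eif2ak2 are also on the interferon-stimulated list. Ddx58 (RIG-I) at -0.73 (SE 0.27) overlapped between the lines. Of 21 genes of the interferon-gamma response 12 were lower without overlap, with a median of -0.34, led by Gbp3 at -1.01 (SE 0.17).

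The interferon-stimulated genes were also compared with WT at p18. In delCsn1s2b-E 38 were lower and 2 higher without overlap, with a median log2 fold change of -0.75. There 46.9% of all genes did not overlap, in either direction. In delCsn3-PE 5 were lower and 10 higher without overlap, with a median of -0.03, where 21.9% of all genes were lower without overlap. Both comparisons share the WT libraries. The OAS members had a median of -0.92 in delCsn3-PE, and its distance from the median of the list was not tested.

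Markers of leukocytes were compared between the lines by cell type. The summed level of 10 macrophage genes was 437 to 532 normalized CPM in delCsn1s2b-E, 627 and 653 in delCsn3-PE and 468 to 567 in WT at p18. Of the 10, 9 were lower than in delCsn3-PE without overlap, against 9.51% of all genes, with a median log2 fold change of -0.45. The sum of 5 general leukocyte genes was 219 to 252 in delCsn1s2b-E, 268 and 285 in delCsn3-PE and 168 to 196 in WT. Dendritic cell markers summed to 41.8 to 44.3 against 57.6 and 61.2. A large part of that difference was Bst2, with means of 14.9 in delCsn1s2b-E and 29.4 in delCsn3-PE. Bst2 is also on the interferon-stimulated list. Of the 8 dendritic cell genes, 2 including Bst2 were lower without overlap and 0 higher. Their median log2 fold change was -0.18, and 2 had fold changes above 0. The sums of T and NK cell markers overlapped, 22.8 to 25.0 against 23.7 and 27.3. B and plasma cell markers, 6 of 8 with an entry, summed to 8.69 to 19.9 against 66.2 and 94.5 (3.78 to 7.92 in WT at p18). Most of the sums in the 2 lines was Jchain, the joining chain of secreted antibodies, at 6.98 to 18.2 against 64.5 and 91.7. Its log2 fold change was -2.61 (SE 0.37). Of the 6 genes, 3 including Jchain were lower without overlap and below a log2 fold change of -1, and 3 had fold changes above 0. No macrophage, general leukocyte, dendritic, or T and NK cell gene was below -1, and none of the markers with an entry was at 0 in all libraries of either line. Luminal epithelial markers summed to 2077 to 2476 in delCsn1s2b-E and 2286 and 2619 in delCsn3-PE. A large part of these sums was Elf5, at 804 to 1291 and at 688 and 1237. Of the 9 luminal genes, 4 were lower without overlap and 0 higher, against 9.51% of all genes lower. Their median log2 fold change was -0.24, and 3 had fold changes above 0. Skeletal muscle markers varied most, from 19.8 to 635 in delCsn1s2b-E and 4.54 to 37.8 in delCsn3-PE. The part of these cell types in the OAS values was not tested.

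**Figure D3:**
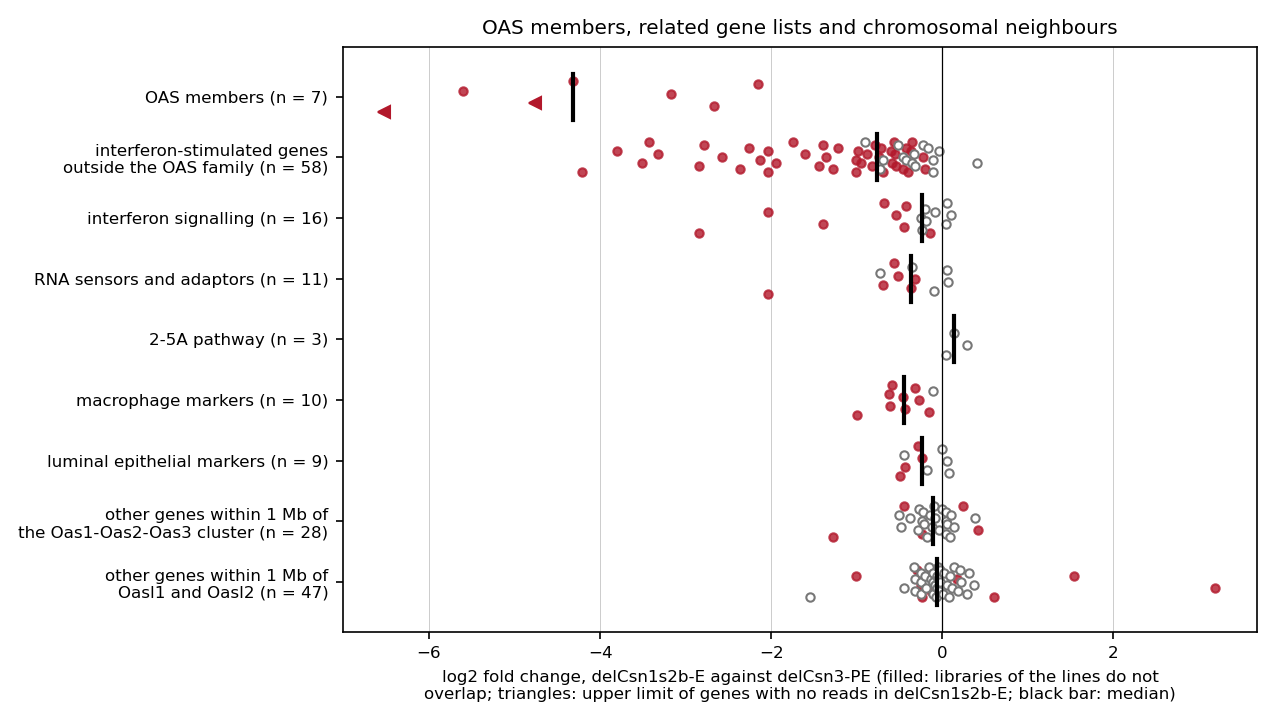
Log2 fold change of delCsn1s2b-E against delCsn3-PE (horizontal axis) for each gene (point) of the OAS members, related lists, cell markers and chromosomal neighbours, with filled points where libraries do not overlap, triangles for genes with no reads drawn at their upper limit, and the median as a black bar. The medians are -4.31 for the OAS members, -0.76 for interferon-stimulated genes, -0.45 for macrophage markers and -0.10 and -0.06 for the neighbours of the OAS genes.

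Neighbours on chromosome 5 were compared in the same way. Within 1 Mb of the Oas1-Oas2-Oas3 cluster, 3 of 28 fitted genes were lower in delCsn1s2b-E than in delCsn3-PE without overlap and 2 higher, with a median log2 fold change of -0.10. Within 1 Mb of Oasl1 and Oasl2, 6 of 47 were lower and 4 higher, with a median of -0.06. Both counts of lower genes are near the share of 9.51% among all genes. Against WT at p18, across the sets and where 46.9% of all genes did not overlap, 14 of the 28 were lower and 2 higher, with a median of -0.62, and 20 of the 47 were lower and 5 higher, with a median of -0.52. The other line, delCsn3-PE, was alike against WT, with 12 of the 28 lower and 3 higher (median -0.55). Of the 47, 21 were lower and 8 higher there (median -0.44), where 21.9% of all genes were lower without overlap. The median of all genes was 0.00 against WT in both lines.

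The genes whose levels were most like the members over the 19 libraries came from the interferon-stimulated list. The likeness is Pearson's correlation with the mean of the members' centred log2(normalized CPM + 0.5), over 14525 genes. Stat2 led with r = 0.98 (Spearman's rho = 0.91), followed by Mx2 with r = 0.97 (rho = 0.90), Slfn8 with r = 0.97 (rho = 0.89), Ddx60 with r = 0.96 (rho = 0.95) and Xaf1 with r = 0.96 (rho = 0.79). These values are dominated by the 3 delCsn1s2b-E libraries. Over the 14 WT and ΔSE libraries alone Ddx60 had r = 0.89, Stat2 0.82 and Xaf1 0.71, and the 5 genes most like the members were 5031426D15Rik, Ccdc28b, Pcdhgb2, Mir99ahg and Faah, at r = 0.93 to 0.95, none of them on the interferon-stimulated list. Pairs of members had a median r of 0.88 over 19 libraries (lowest 0.80) and of 0.39 over the 14 (range -0.20 to 0.75). The 14 libraries share differences of stage and depth.

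The contrasts between stages and between ΔSE and WT were not part of the rule that chose the members, and tests were made there. The WT libraries at p18 did enter that rule, on the side where the members were higher, and they are part of every test below except the change with stage in ΔSE tissue and the genotypes at p6. The study describes its RNA-seq replicates as independent, but the labels do not tie libraries to animals, and the p-values measure only the spread between these libraries. The first question was whether OAS mRNA changed during pregnancy. In WT tissue 1 of 7 members fell between p6 and p18 and none rose, where 12.4% of all genes fell. Oas2 was at 17.2, 17.2 and 13.1 normalized CPM at p6 and at 10.5, 4.74 and 6.86 at p18, and the 2 stages did not overlap. The log2 fold change was -1.08 (SE 0.28, adjusted p = 0.00770, edgeR's quasi-likelihood test). The other 6 members had log2 fold changes between -0.52 (Oas1b, adjusted p = 0.333) and 0.38 (Oas1a, adjusted p = 0.280). The median of the members was -0.03, against -0.05 for all genes. Luminal epithelial markers summed to 1015 to 1274 at p6 and 1674 to 2250 at p18, macrophage markers to 264 to 926 and 468 to 567, and fibroblast markers to 1083 to 9473 and 4937 to 6606. Their part in the fall of Oas2 was not tested.

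In ΔSE tissue 5 of 7 members fell between p6 and p18 and none rose, where 18.3% of all genes fell. Oas2 stood at 9.30, 17.0, 19.4 and 13.3 normalized CPM at p6 and at 5.63, 5.66, 6.61 and 4.83 at p18. It had a log2 fold change of -1.36 (SE 0.25, adjusted p = 0.000548). Oas1a stood at 3.83, 5.19, 3.87 and 5.05 at p6 and at 2.25, 2.01, 2.93 and 2.75 at p18, again without overlap. Its log2 fold change was -0.83 (SE 0.22, adjusted p = 0.00877). Oas1g, from 20 to 51 reads at p6 and 3 to 11 at p18, had -1.43 (SE 0.40, adjusted p = 0.0102). Oas3 had -0.90 (SE 0.30, adjusted p = 0.0281) and Oasl2 -0.45 (SE 0.14, adjusted p = 0.0207). Oas1b at -0.75 (adjusted p = 0.104) and Oasl1 at 0.09 (adjusted p = 0.843) did not pass.

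The count of 5 fell to 3 when ΔSE p6 replicate 2, ΔSE p6 replicate 4 or ΔSE p18 replicate 2 was left out, in each case through the loss of Oas3 and Oasl2. The median log2 fold change of the members was -0.83, against -0.07 for all genes. Cell markers moved with the same comparison in both directions. All 9 luminal epithelial genes rose, with sums of 604 to 1109 normalized CPM at p6 and 1870 to 2161 at p18, and milk protein genes went from sums of 46.6 to 196 to sums of 38964 to 76784. Fibroblast markers summed to 9920 to 12862 at p6 and 3398 to 6220 at p18, macrophage markers to 597 to 787 and 458 to 538, and skeletal muscle markers to 50.5 to 3535 and 8.65 to 19.1. The sums of general leukocyte markers overlapped, 173 to 209 and 182 to 213. Their part in the change of the OAS genes was not tested.

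Other genes of the pathway were tested in the same comparisons. Abce1 and Pde12, downstream of OAS, rose at p18 in both genotypes. Abce1 rose by a log2 fold change of 1.10 in WT (SE 0.15, adjusted p = 6.4e-05) and 0.82 in ΔSE (SE 0.13, adjusted p = 0.000156), and Pde12 by 0.77 (SE 0.22, adjusted p = 0.0151) and 0.54 (SE 0.19, adjusted p = 0.0407). Of 58 interferon-stimulated genes tested, 11 rose and 8 fell in WT tissue, where 17.2% of all genes rose and 12.4% fell. In ΔSE tissue 10 rose and 17 fell, where 17.3% of all genes rose and 18.3% fell. Cmpk2, a mitochondrial nucleotide kinase, rose in both, by 2.49 (SE 0.23, adjusted p = 2.4e-06) and 2.11 (SE 0.20, adjusted p = 1.8e-06). In ΔSE tissue Mx1 fell with a log2 fold change of -1.64 (SE 0.27, adjusted p = 0.000246), Ifi27l2a with -2.18 (SE 0.36, adjusted p = 0.000267) and Usp18 with -1.15 (SE 0.21, adjusted p = 0.000490). The interferon-gamma response list had 1 gene higher and 9 lower of 21 in ΔSE, with Ciita and Cxcl10 at -1.32 and -1.58, and 1 higher and 3 lower in WT.

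**Figure D4:**
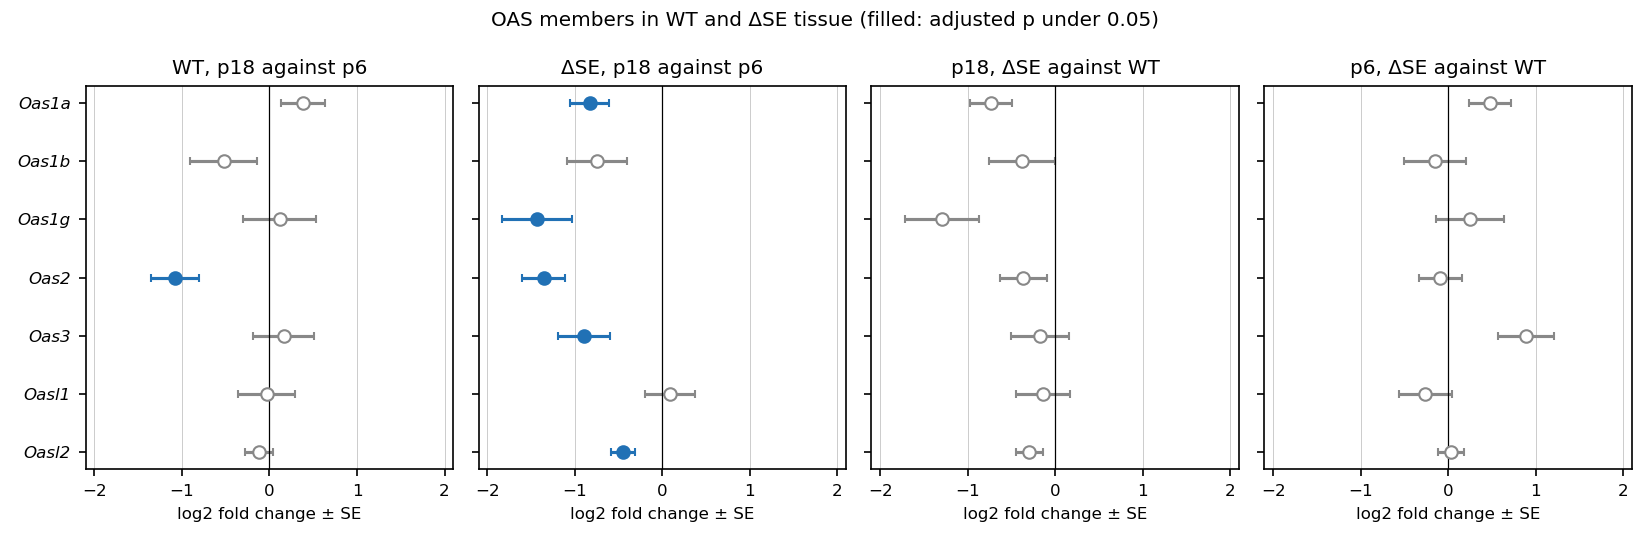
Log2 fold change with its standard error (horizontal axis) of each OAS member in WT and ΔSE tissue, between stages within a genotype and between genotypes within a stage, with filled points at an adjusted p under 0.05 (edgeR's quasi-likelihood test). Oas2 is filled for WT between stages, 5 members are filled for ΔSE between stages, and none is filled between genotypes.

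The second question was whether deletion of the super-enhancer, which lies in the casein locus, changed OAS mRNA. At p18 no member passed the edgeR test between ΔSE and WT, where 0.314% of all genes did, 2 of 7 had an unadjusted p under 0.05, and DESeq2 also called 0. Oas1a, at 2.25, 2.01, 2.93 and 2.75 normalized CPM in ΔSE and 4.48, 4.67 and 3.40 in WT, had a log2 fold change of -0.73 (SE 0.24, adjusted p = 0.194). Oas1g had -1.30 (SE 0.42, adjusted p = 0.189). The libraries of the 2 genotypes did not overlap for either gene. All 7 log2 fold changes were below 0, with a median of -0.37 against -0.04 for all genes, and they ranged from -1.30 to -0.14.

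At p6 no member passed between ΔSE and WT, where 1.03% of all genes did, 1 of 7 had an unadjusted p under 0.05, and DESeq2 called 0. That gene was Oas3, at 2.42, 3.56, 2.85 and 3.32 normalized CPM in ΔSE and 1.26, 1.76 and 1.91 in WT, with a log2 fold change of 0.89 (SE 0.32, adjusted p = 0.167). The difference between the genotypes in the change with stage was tested as an interaction. There edgeR called 0 of 7 members, where 0.151% of all genes were called, 3 of 7 had an unadjusted p under 0.05, and DESeq2 called 1, Oas1a. The edgeR values were -1.21 for Oas1a (SE 0.34, adjusted p = 0.114), -1.54 for Oas1g (SE 0.58, adjusted p = 0.203) and -1.06 for Oas3 (SE 0.46, adjusted p = 0.265). The fall in ΔSE tissue and its absence among the calls in WT tissue were thus not shown to differ between the genotypes by edgeR.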

How the data were processed

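Total RNA-seq was deposited as counts, whole numbers of reads per gene that the authors made without normalization by trimming reads with Trimmomatic, aligning them with STAR to mm10 (GRCm38) and, per the labels of the single-enhancer libraries and the study's methods, counting with HTSeq. How reads that fit both Oas1a and Oas1g were treated is not given in the sources used here. Summary entries that name no gene, present only for the single-enhancer libraries, were left out.

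Reads were scaled by TMM factors to normalized CPM over 19 libraries and tested by edgeR's quasi-likelihood functions (edgeR 4.0.16, R 4.3.3), keeping genes with 10 reads or more over the libraries, in a model of 4 groups for WT and ΔSE tissue (14 libraries, 17844 genes). A model of 3 groups (8 libraries at p18, 17125 genes) gave fold changes of the single-enhancer lines without a test. The threshold was a Benjamini-Hochberg adjusted p of 0.05 over all genes. Intervals are exact (Clopper-Pearson) for folds and cover counting error only, and the floor was 3 reads. The fitting code was first checked on simulated counts with known changes. No 2 libraries were identical, and replicates differed by more than sampling noise.

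The members, lists and tests were chosen with earlier results of these data known. Named are all members, the other OAS genes, up to 4 genes per list with the smallest p among those called (or the largest fold change, with a mean of at least 20 reads, where no test was made), the 5 genes most like the members, the genes with no reads in delCsn1s2b-E alone, and the targeted caseins. The signalling genes given besides, Ifnar1, Ifnar2, Jak1, Tyk2 and Irf9, were chosen by role after their values were seen. Alternatives were DESeq2 (version 1.42.0), scaling by library totals, other filters, thinned reads, 1 factor of unwanted variation, a fit of the groups compared alone, a block for the replicate number, and the omission of single libraries. 50-base stretches and positions came from GENCODE M21. Some genes of the pathway are not reported here.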

Additional observations from a re-analysis of the deposited data

How the results depend on the processing

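No OAS value in WT and ΔSE tissue changed sign where the main fit or the alternative called it. Of 532 values of single members under the alternatives in WT and ΔSE tissue, 489 kept their direction and side of the threshold, 9 lost and 4 gained a call, and 30 changed sign without a call. The interaction of genotype and stage gave 1 member, Oas1a, with DESeq2. For delCsn3-PE against WT, 1 member was without overlap when libraries were scaled by totals. That scaling shifted the median of all genes to -0.65 between stages in ΔSE and -0.42 in WT, turned Oas1a, Oas1g and Oas3 below 0 in WT between stages, and added Oas1b to the ΔSE calls. With 1 library left out, members called in ΔSE between stages ranged from 3 to 5 and members without overlap in delCsn3-PE against WT from 5 to 7.

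All 7 members stayed lower without overlap in delCsn1s2b-E against both groups under every scaling, thinning and omission tried. The count of all genes called depended far more on the tool, with 56 between ΔSE and WT at p18 by edgeR and 496 by DESeq2, 183 and 908 at p6, and 27 and 584 for the interaction. Replicate numbers did not pair the libraries in the tested comparisons (correlations of deviations -0.0843 to 0.0892, best with the own number in at most 2 libraries of a comparison). With the replicate block the members called were 1 in WT and 5 in ΔSE between stages and 0 elsewhere, and the median log2 fold change was -4.29 in delCsn1s2b-E against delCsn3-PE.

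Depth limits Oas3 and Oas1g most, with 3 to 68 reads per library where they were read. The small number of delCsn3-PE libraries (2), the uncertain stage of the single-enhancer lines and their lack of WT libraries of their own limit all comparisons of these lines.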
